A study of Homo sapiens with 42 samples.

Results

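The 10 genes described here take up, move, store, release and sense iron in human cells. They were chosen by name for these roles, with earlier results of these data known. Each matched exactly 1 of the 58243 genes in the counted annotation: TFRC, TFR2, STEAP3 and SLC11A2 (uptake), SLC25A37 (import into mitochondria), FTH1 and FTL (storage), NCOA4 (release from storage), SLC40A1 (export) and IREB2 (sensing). All 10 passed the filter on low counts in both RNA fractions.

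Most iron reaches a red cell precursor as transferrin bound to transferrin receptor 1, the product of TFRC; in the endosome STEAP3 reduces the iron and the transporter encoded by SLC11A2 carries it out. Mitoferrin 1, the product of SLC25A37, then brings it into mitochondria, where haem is made, while surplus iron is held in ferritin, a shell of FTH1 and FTL chains, and released when NCOA4 carries ferritin to the lysosome. Cells match these steps to their iron supply largely after transcription: iron regulatory proteins, one of them encoded by IREB2, bind hairpins called iron-responsive elements, which block translation when they lie in a 5′ UTR and stabilise the mRNA when they lie in a 3′ UTR.

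K562, an established cell line from chronic myeloid leukaemia with erythroid features and the BCR-ABL1 kinase, was left untreated (CTRL) or treated with imatinib (IM, 1 μM), an inhibitor of that kinase, with JTE-607 (JTE, 5 μM), which targets CPSF3, the nuclease that cleaves pre-mRNA before polyadenylation, or with KCl added at 110 mM to stress the cells osmotically. Poly(A) mRNA of whole cells was sequenced from CTRL, IM 1h, 6h and 18h, JTE 1h, 6h and 18h, and KCl 1h and 3h (27 libraries), and nuclear RNA depleted of ribosomal RNA from CTRL, IM 1h and 18h, JTE 1h and KCl 1h (15 libraries). Each group held 3 libraries, titled as biological replicates. The study asked how these treatments alter transcription and RNA processing, and the comparisons here ask what they did to the RNA of the iron genes.

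The sequences that iron regulatory proteins read are shown first, because a strict search found them in TFRC, FTH1, FTL and SLC40A1. A search of the UTRs of protein-coding transcripts in GENCODE 44 (GRCh38), on the transcript strand, looked for a C, 5 bases, the loop CAGTGN and 5 bases that pair with the first 5, G with T pairs allowed. The capitals mark the loop, the letters are written as DNA, and each site is printed as the 29 bases around it. Ferritin chains and the exporter carry it in the 5′ UTR, at chr11:61967574-61967602 on the minus strand (FTH1, 7 of 8 transcripts), chr19:48965335-48965363 on the plus strand (FTL, 1 of 1) and chr2:189580661-189580689 on the minus strand (SLC40A1, 1 of 5).
FTH1: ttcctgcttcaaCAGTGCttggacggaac
FTL: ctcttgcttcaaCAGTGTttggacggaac
SLC40A1: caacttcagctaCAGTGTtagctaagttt

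TFRC carried 4 matches in its 3′ UTR, on the minus strand of chromosome 3 and in 10 of 11 transcripts, at chr3:196050979-196051007 (site 1), chr3:196050575-196050603 (site 2), chr3:196050510-196050538 (site 3) and chr3:196050463-196050491 (site 4). The sites are numbered from the 5′ end of the transcript.
TFRC site 1: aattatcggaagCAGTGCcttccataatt
TFRC site 2: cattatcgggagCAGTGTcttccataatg
TFRC site 3: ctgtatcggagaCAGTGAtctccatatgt
TFRC site 4: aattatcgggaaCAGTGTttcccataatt

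The same letters were found in 25 of 19121 genes with a 5′ UTR (0.131%) and in 126 of 19569 genes with a 3′ UTR (0.644%). These counts used the longest protein-coding transcript of each gene and, unlike the list above, included chromosome 8. The search allowed no bulge or mismatch in the paired stem. In TFR2, STEAP3, SLC11A2, IREB2 and NCOA4 it therefore says only that these letters are not in their UTRs. It says nothing about SLC25A37, because matches on chromosome 8 were left out. In these data the 4 genes listed with a match had estimates of both signs. At IM 18h the log2 fold changes against CTRL, measured on mRNA levels, were 0.72 for TFRC, 0.54 for SLC40A1, 0.36 for FTH1 and -0.39 for FTL. Of these, the change of TFRC alone passed the test defined with the results. Differences between the 4 genes were not tested. The mRNA levels do not measure translation, the step that a 5′ UTR element blocks.

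Total counts ran from 16439848 to 62953314 per mRNA library, where KCl 1h replicates 2 and 3 (62953314 and 42474454) lay above the other 25 libraries, and from 16175394 to 25103205 per nuclear library. Levels are given in CPM, the count of a gene scaled to a library total of 1000000. The 8 erythroid markers HBG1, HBG2, HBE1, HBZ, GATA1, KLF1, TAL1 and KEL were present in every group and summed to 2553–4391 CPM in CTRL mRNA libraries, whereas 5 markers of T cells, B cells, monocytes, hepatocytes and fibroblasts (CD3E, MS4A1, CD14, ALB and COL1A1) summed to 0.683–1.29 CPM, with all 5 under 1 CPM in each CTRL mRNA library and MS4A1 at 0. In bulk RNA a change in the share of cells that express a gene and a change in its RNA per cell cannot be told apart.

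In CTRL mRNA, levels per kilobase of annotated exon fell in the order FTL, TFRC, FTH1, NCOA4, SLC25A37, IREB2, TFR2, SLC40A1, STEAP3 and SLC11A2. FTL stood at 1847 ± 33.7 CPM per kb (SD, n = 3), TFRC at 169 ± 30.8, SLC25A37 at 35.8 ± 3.39 and SLC11A2, the last, at 5.29 ± 1.12. FTH1 (108 ± 13.8 CPM per kb) and NCOA4 (101 ± 5.55) overlapped between libraries, as did TFR2 (15.4 ± 1.00) and SLC40A1 (13.9 ± 2.68); the other neighbours in this order did not. By their means the first 5 genes came in the same order in CTRL nuclear RNA, where TFR2 came next at 30.8 ± 3.82 CPM per kb and overlapped with SLC25A37 (35.6 ± 7.84) between libraries. The level of FTH1 may be understated. In the counted annotation 62.4% of its exon bases are shared with exons of BEST1 on the other strand. Those BEST1 exons also cover 73.2% of the principal FTH1 transcript of GENCODE 44. Read pairs over exons of both genes were left out as ambiguous.

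**Figure D1:**
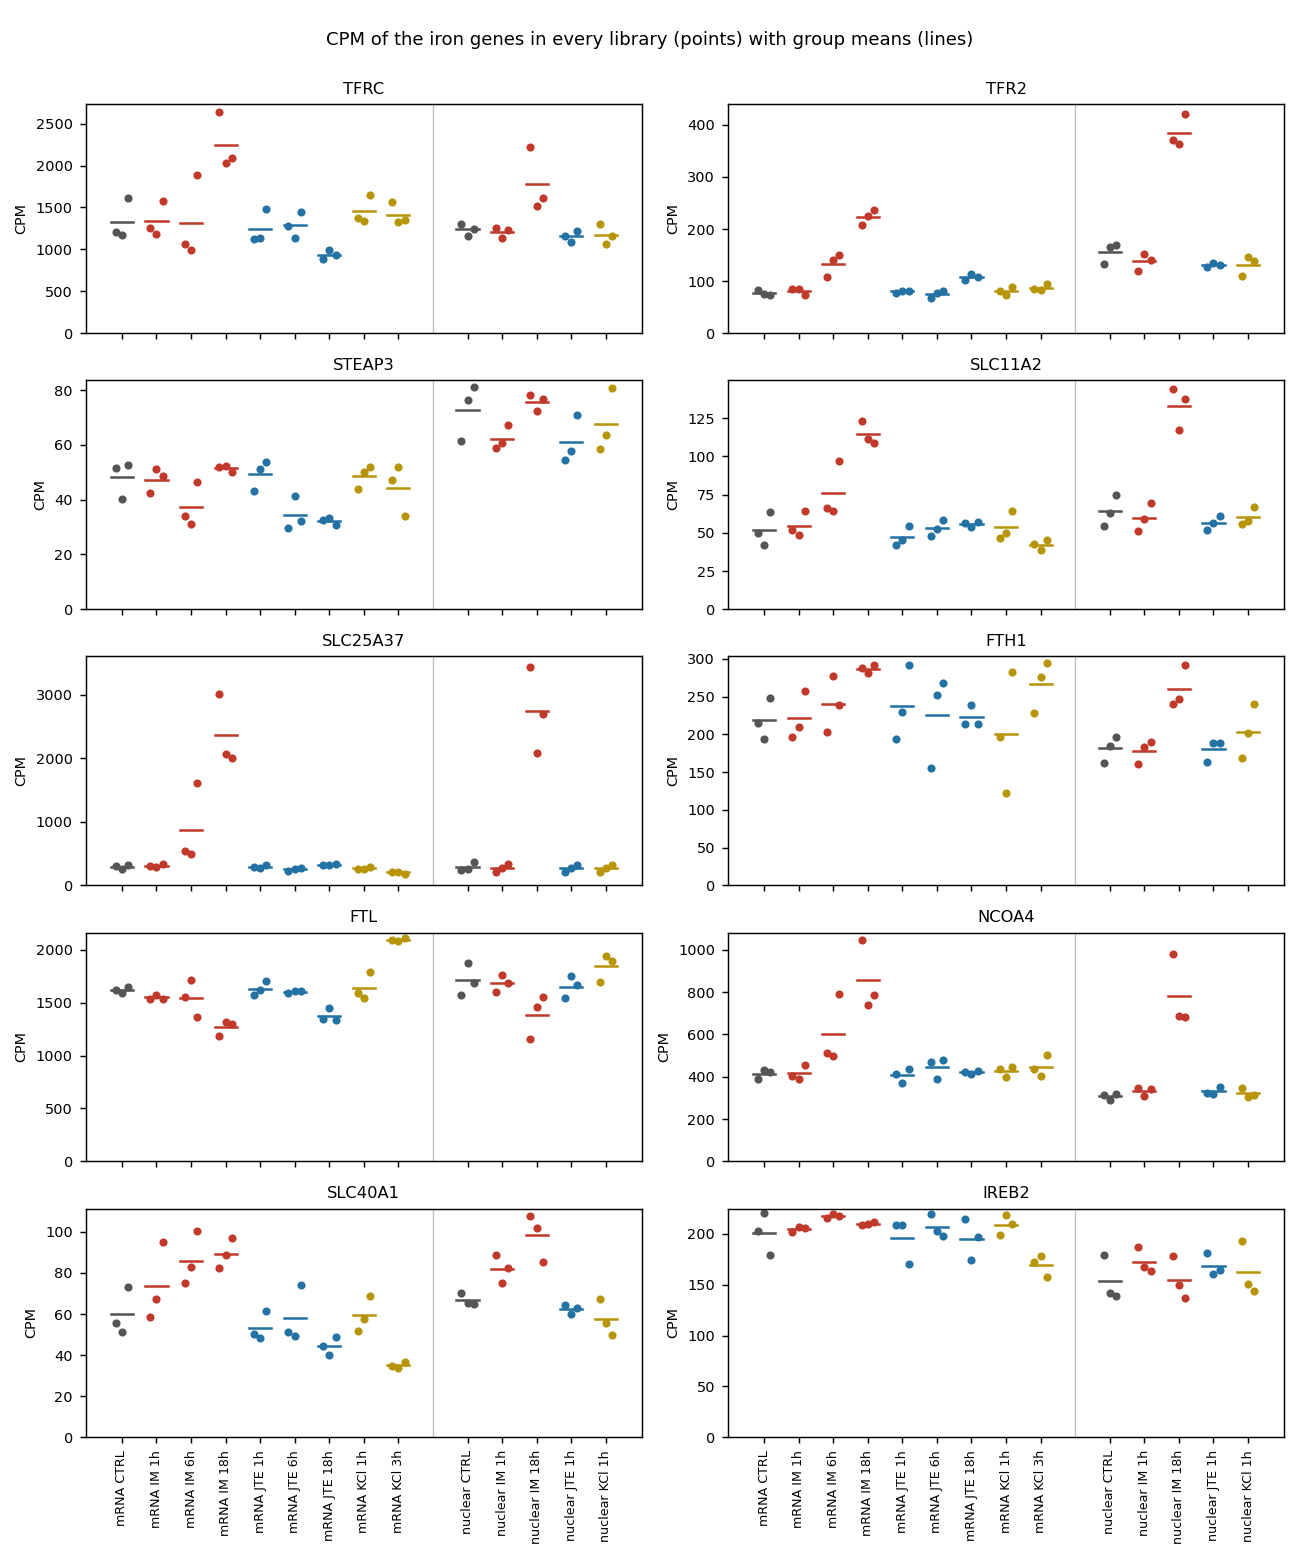
Level of each iron gene in CPM (vertical axis from 0) in every mRNA library (left of the grey line) and nuclear library (right). Points are libraries in the order of replicates 1 to 3, lines are group means, and grey, red, blue and yellow stand for CTRL, IM, JTE and KCl; SLC25A37 reached 2001 to 3015 CPM in IM 18h mRNA against 261 to 316 CPM in CTRL.

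A gene was called where edgeR's quasi-likelihood test gave a Benjamini-Hochberg adjusted p under 0.05 over all genes tested and the log2 fold change lay beyond 0.6 in either direction. At IM 18h, 5 of the 10 iron genes were called in mRNA, all higher (TFRC, TFR2, SLC11A2, SLC25A37 and NCOA4), where 30.5% of all 18095 genes were called and 17.2% were called higher. The median log2 fold change was 0.63 over the 10 genes and 0.04 over all genes tested. At IM 6h, 2 genes were called higher, TFR2 and SLC25A37, against 9.94% of all genes called and 5.82% called higher. A single gene was called lower at JTE 18h (STEAP3; 5.39% of all genes called, 2.09% lower) and a single gene at KCl 3h (SLC40A1; 11.9% of all genes called, 7.33% lower). On the adjusted p alone, with no fold threshold, 7 of the 10 passed at IM 18h (43.8% of all genes), 4 at IM 6h (16.0%), 3 at JTE 18h (9.20%) and 2 at KCl 3h (15.8%). All these comparisons share the CTRL libraries.

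With edgeR no iron gene was called in mRNA at IM 1h, JTE 1h, JTE 6h or KCl 1h, where 0.0166%, 0.851%, 13.2% and 5.45% of all genes were. DESeq2 also called 0 in each. At an unadjusted p under 0.05 the count was 0 in IM 1h, JTE 1h and KCl 1h and 1 in JTE 6h (STEAP3). Of all 18095 genes, 206, 1341, 2711 and 5336 reached it in these comparisons, in that order. Estimates at IM 1h ran from -0.07 (FTL) to 0.29 (SLC40A1) on the log2 scale.

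**Figure D2:**
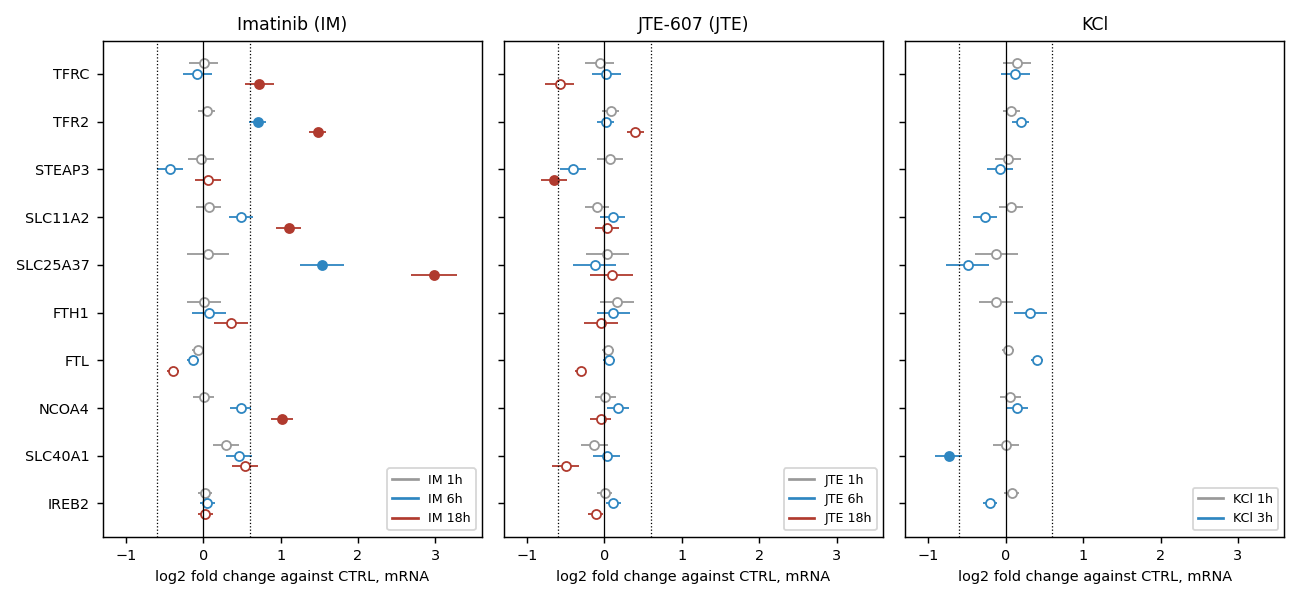
Log2 fold change of each iron gene against CTRL in mRNA (horizontal axis) after IM, JTE and KCl, with standard errors as bars. Filled points were called, open points were not, and dotted lines mark 0.6 in either direction; filled points at IM 18h run from 0.72 (TFRC) to 2.99 (SLC25A37).

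TFRC (ENSG00000072274, chromosome 3, 196027183 to 196082189, minus strand) encodes the receptor that brings in iron-loaded transferrin. Its mRNA measured 1210.5, 1174 and 1612 CPM in CTRL replicates 1 to 3 and 2641, 2026 and 2085 CPM in IM 18h. Every IM 18h library lay above every CTRL library, and TFRC rose 1.65-fold (log2 change 0.72 with SE 0.19, adjusted p 0.00325 by edgeR). Without IM 18h replicate 1, the highest library, the log2 fold change was 0.58, adjusted p 0.0296, short of 0.6. At IM 6h the libraries disagreed: replicates 1 and 2 held 1068 and 994 and replicate 3 held 1885 CPM, above all CTRL libraries, and the fitted log2 fold change was -0.07 (SE 0.19). With JTE 18h TFRC stood at 881, 994 and 935 CPM, below every CTRL library, but this change of -0.58 did not pass the test (SE 0.19, edgeR adjusted p 0.055).

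TFR2 (ENSG00000106327, chromosome 7, 100620416 to 100642779, minus strand) encodes the second transferrin receptor, which binds transferrin with lower affinity and takes part in iron sensing in liver and erythroid cells. It measured 83.8, 76.2 and 74.2 CPM in CTRL, 107, 141 and 149.6 CPM in IM 6h and 208, 226 and 236 CPM in IM 18h. The 3 groups did not overlap. TFR2 rose 1.63-fold at 6 h (log2 change 0.71 with SE 0.11, adjusted p 0.000104 by edgeR) and 2.79-fold at 18 h (log2 change 1.48 with SE 0.11, adjusted p 1.76e-09 by edgeR). The 6 h change was 0.58, adjusted p 0.00226, without replicate 3, just under the fold threshold. With JTE 18h, TFR2 stood at 102, 115 and 108 CPM, above all CTRL libraries, with a change of 0.40 that passed the adjusted p (0.0215) and not the fold threshold. The edgeR adjusted p was 0.0795 without CTRL replicate 2 and 0.108 without CTRL replicate 3. It was 0.119 without JTE 18h replicate 2 and 0.0725 without JTE 18h replicate 3.

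STEAP3 (ENSG00000115107, chromosome 2, 119223831 to 119265652, plus strand), the endosomal reductase that turns ferric into ferrous iron, was flat at IM 18h: CTRL held 51.5, 40.4 and 52.8 CPM and IM 18h 51.9, 52.2 and 50.3 CPM, for a log2 fold change of 0.06 (SE 0.17). Some of its exon bases are shared with the antisense gene STEAP3-AS1, and the counting used no strand. At JTE 18h it held 32.5, 33.4 and 30.9 CPM, all below CTRL, and fell to 0.638 of its CTRL level (log2 change -0.65 with SE 0.17, adjusted p 0.0161 by edgeR). That call rested on single libraries: the adjusted p was 0.0728 without CTRL replicate 1, 0.0644 without CTRL replicate 3, 0.0648 without JTE 18h replicate 1 and 0.0805 without JTE 18h replicate 3. IM 6h replicates 1 and 2 held 34.1 and 31.2 CPM and replicate 3 held 46.5 CPM, within the CTRL range. Without that replicate STEAP3 passed both thresholds as lower (-0.65, adjusted p 0.0223), so the fit without it called SLC25A37 and STEAP3 in place of SLC25A37 and TFR2.

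SLC11A2 (ENSG00000110911, chromosome 12, 50979401 to 51028566, minus strand) encodes the divalent metal transporter 1, which moves ferrous iron out of the endosome. It was the least abundant of the 10 per kilobase, with 49.8, 42.2 and 63.9 CPM in CTRL and 123, 111 and 109 CPM in IM 18h. The lowest IM 18h library lay far above the highest CTRL library, and SLC11A2 rose 2.15-fold (log2 change 1.10 with SE 0.16, adjusted p 7.78e-06 by edgeR). IM 6h libraries held 66.2, 64.3 and 96.8 CPM, all above CTRL, with a change of 0.49 (edgeR adjusted p 0.0382) that stayed under the fold threshold. Without IM 6h replicate 3 that change was 0.25, adjusted p 0.348. The counts cover the whole gene, so transcripts of SLC11A2 with different 3′ ends were not separated.

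SLC25A37 (ENSG00000147454, chromosome 8), whose product mitoferrin 1 feeds iron to haem and iron-sulphur cluster synthesis in mitochondria, had the largest change of the 10 in every imatinib comparison in which any of them was called. CTRL libraries held 297, 261 and 316 CPM and IM 1h libraries 301, 286 and 328 CPM. IM 6h libraries held 542, 488 and 1603 CPM and IM 18h libraries 3015, 2062 and 2001 CPM. CTRL and IM 1h overlapped, every IM 6h library lay above both, and every IM 18h library lay above every IM 6h library. SLC25A37 rose 2.90-fold at 6 h (log2 change 1.54 with SE 0.28, adjusted p 0.000727 by edgeR) and 7.92-fold at 18 h (log2 change 2.99 with SE 0.30, adjusted p 1.24e-07 by edgeR). The 6 h value depended on replicate 3, without which the log2 fold change was 0.74, adjusted p 0.00114; in a fit of only the CTRL and IM 6h libraries it was 1.53, adjusted p 0.105, no longer a call. JTE and KCl gave no call: JTE 18h held 323, 324 and 333 CPM and KCl 3h 216, 208 and 180.0 CPM, the latter below all CTRL libraries with a change of -0.49 (SE 0.28, edgeR adjusted p 0.275).

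The erythroid markers, like SLC25A37, were higher at IM 18h than in CTRL. Their summed level was 3378, 4391 and 2553 CPM in CTRL replicates 1 to 3, 4539, 3353 and 2486 CPM in IM 1h, 5613, 4558 and 7285 CPM in IM 6h and 13838, 10076 and 9899 CPM in IM 18h. Within CTRL and within IM 1h the order was not that of SLC25A37: replicate 3 was the lowest in the markers and the highest in SLC25A37. IM 6h replicate 3 and IM 18h replicate 1 were the highest libraries of their groups for the markers and for SLC25A37, TFRC and NCOA4 alike. At IM 18h, 7 of the 8 markers were called higher in mRNA and in nuclear RNA, all but GATA1, while none was called in any JTE or KCl comparison with CTRL. The part that the marker level has in the change of any iron gene was not tested. The 5 markers of other cell types summed to 1.30–2.08 CPM at IM 18h in mRNA, above CTRL, and COL1A1 of fibroblasts was called higher there; CD14 of monocytes was called higher at KCl 3h. Their part in any result was not tested.

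**Figure D3:**
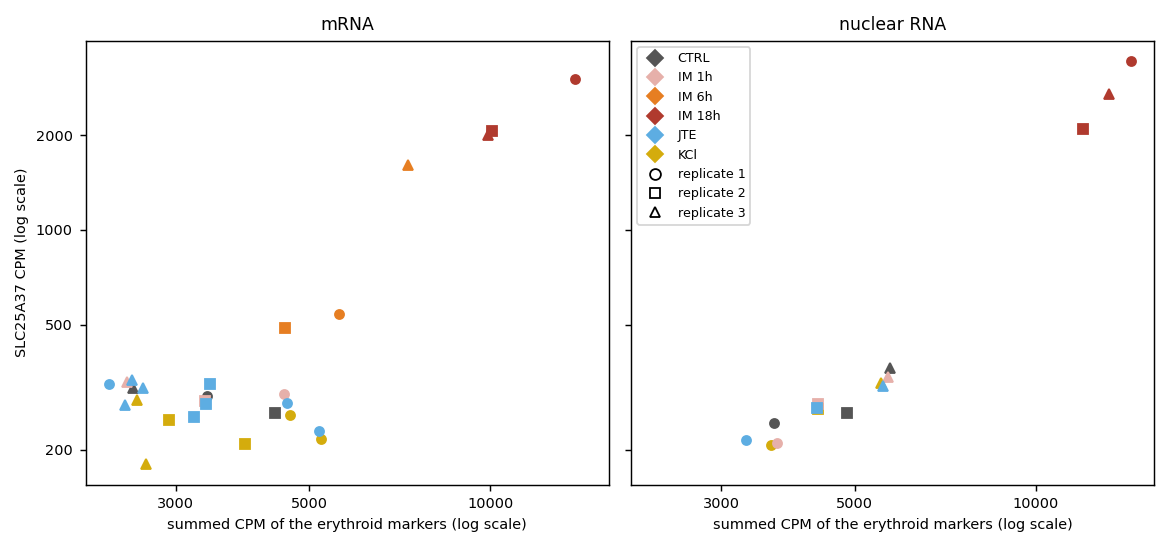
SLC25A37 level against the summed level of 8 erythroid markers, both in CPM on log axes, for each mRNA library (left) and nuclear library (right). Colours mark the treatment, shapes the replicate; IM 6h replicate 3 (orange triangle) lies at 7285 CPM of markers and 1603 CPM of SLC25A37, between the other IM 6h libraries and the IM 18h libraries.

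FTH1 (ENSG00000167996, chromosome 11, 61959718 to 61967660, minus strand) encodes the ferritin chain that oxidises iron for storage. CTRL mRNA libraries held 215, 193 and 249 CPM and IM 18h libraries 289, 281 and 292 CPM. These groups did not overlap, but the change of 0.36 did not pass the test (SE 0.22, edgeR adjusted p 0.191). Replicates of FTH1 were spread more widely elsewhere, as in KCl 1h with 196, 122 and 283 CPM, where the lowest value came from the deepest library. In nuclear RNA FTH1 held 162, 185 and 197 CPM in CTRL and 239.8, 247 and 292 CPM in IM 18h, again without overlap. That change of 0.45 passed the adjusted p (0.0032, edgeR) and not the fold threshold.

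Pseudogenes bear on both ferritin genes, since reads that align equally well to a gene and to its processed copies were not kept. The 25 annotated FTH1 pseudogenes together held 106 to 214 CPM in mRNA libraries, or 34.9% to 55.2% of all counts assigned to FTH1 and its copies, against 3.14% to 5.47% in nuclear libraries. For FTL the 16 pseudogenes held 2.40% to 2.81% in mRNA, and for NCOA4 the 4 pseudogenes at most 1.25%. Adding the pseudogene counts to FTH1 gave a log2 fold change of 0.34 at IM 18h in mRNA (edgeR adjusted p 0.126), against 0.36 for the FTH1 counts alone, and called FTH1 and FTL in no comparison.

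FTL (ENSG00000087086, chromosome 19, 48965301 to 48966878, plus strand), the ferritin light chain, was the most abundant of the 10 in both fractions per kilobase. Its libraries were close together in CTRL, at 1623, 1592 and 1651 CPM, and lay lower in IM 18h, at 1187, 1314 and 1298 CPM, and in JTE 18h, at 1342, 1449 and 1335 CPM. In KCl 3h they lay higher, at 2089, 2079 and 2114 CPM. None of these groups overlapped CTRL. The log2 fold changes were -0.39 at IM 18h (edgeR adjusted p 0.000172), -0.31 at JTE 18h (edgeR adjusted p 0.0099) and 0.41 at KCl 3h (edgeR adjusted p 0.000317), all past the adjusted p and short of the fold threshold. The JTE 18h change missed the adjusted p without JTE 18h replicate 1 (0.0757, edgeR) or JTE 18h replicate 3 (0.0762). The 2 ferritin chains thus had estimates of opposite sign at IM 18h in both fractions, with FTL at -0.37 in nuclear RNA (edgeR adjusted p 0.00525); the difference between the chains was not tested.

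NCOA4 (ENSG00000266412, chromosome 10, 46005088 to 46030714, minus strand) encodes the receptor that delivers ferritin to the lysosome. Its libraries held 388, 430.2 and 423 CPM in CTRL, 514, 499 and 792 CPM in IM 6h and 1044, 741 and 784 CPM in IM 18h. Both imatinib groups lay above CTRL without overlap, although IM 6h replicate 3 reached into the 18 h range. NCOA4 rose 2.02-fold at 18 h (log2 change 1.02 with SE 0.14, adjusted p 4.14e-06 by edgeR) and had a log2 fold change of 0.48 at 6 h (edgeR adjusted p 0.019), under the fold threshold. Without IM 6h replicate 3 the 6 h change was 0.21, adjusted p 0.301. No JTE or KCl group differed from CTRL by more than 0.18 on the log2 scale.

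SLC40A1 (ENSG00000138449, chromosome 2, 189560579 to 189583758, minus strand) encodes ferroportin, the iron exporter. It held 55.5, 51.3 and 73.2 CPM in CTRL and 82.2, 88.8 and 96.8 CPM in IM 18h, without overlap, and its change of 0.54 passed the adjusted p (0.0138, edgeR) but not the fold threshold. It passed both without CTRL replicate 3, at 0.66. It missed the adjusted p without CTRL replicate 1 (0.0574, edgeR), CTRL replicate 2 (0.0834) or IM 18h replicate 3 (0.0544). In KCl 3h all libraries were low and close together, at 34.7, 33.5 and 36.9 CPM, and SLC40A1 fell to 0.599 of CTRL (log2 change -0.74 with SE 0.17, adjusted p 0.00377 by edgeR). CTRL replicate 3 was the highest of its group, and without it the KCl 3h change was -0.59, adjusted p 0.0279, just short of the fold threshold. KCl 1h libraries still held 51.9, 57.7 and 69.0 CPM, within the CTRL range.

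IREB2 (ENSG00000136381, chromosome 15, 78437431 to 78501456, plus strand) encodes iron regulatory protein 2, which is itself controlled mainly through degradation of the protein. Its mRNA was the steadiest of the 10 over the imatinib series, with 202, 221 and 179.6 CPM in CTRL, 215, 219.7 and 218 CPM in IM 6h and 209, 209 and 212 CPM in IM 18h. The treated libraries lay inside the CTRL range. The largest estimate in mRNA against CTRL was -0.20 at KCl 3h (SE 0.09, edgeR adjusted p 0.16), where the libraries held 172, 178 and 158 CPM, below those of CTRL. It was called in no comparison.

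Later time points were compared with earlier ones directly, without CTRL. Between IM 6h and IM 18h, 4 iron genes were called higher at the later time, against 4.41% of all genes called and 2.48% called higher: SLC25A37 by 1.45 on the log2 scale, TFRC by 0.80, TFR2 by 0.78 and SLC11A2 by 0.62 (edgeR adjusted p 0.00341, 0.012, 0.000282 and 0.0185). TFRC and SLC11A2 lost the call when any of IM 6h replicates 1 and 2 and IM 18h replicate 1 was left out (adjusted p between 0.0834 and 0.123). Without IM 6h replicate 3, STEAP3 and NCOA4 were called too. Between KCl 1h and KCl 3h SLC40A1 fell by 0.74 on the log2 scale (edgeR adjusted p 0.00974, 3.29% of all genes called and 1.92% called lower), and on the adjusted p alone FTL passed too, at 0.38 (4.89% of all genes).

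Between JTE 6h and JTE 18h edgeR and DESeq2 each called 0 of the 10, against 13.4% of all genes by edgeR. By edgeR 5 of the 10 had an unadjusted p under 0.05, beside 6215 of all 18095 genes. On the adjusted p alone 4 passed (21.8% of all genes). TFRC lay just outside the call, with -0.60 and an edgeR adjusted p of 0.0244, and SLC40A1 near it, with -0.53 and 0.0304. Both were called without JTE 6h replicate 2, SLC40A1 alone without JTE 6h replicate 1, and TFRC alone without JTE 18h replicate 2.

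Imatinib and JTE were compared at equal times. At 18 h, 7 of the 10 genes were higher with imatinib, against 30.3% of all genes called and 16.7% called higher. The log2 difference was 2.89 for SLC25A37, 1.30 for TFRC, 1.08 for TFR2, 1.07 for SLC11A2, 1.06 for NCOA4, 1.04 for SLC40A1 and 0.71 for STEAP3, with edgeR adjusted p from 6.86e-08 (TFR2) to 0.00163 (STEAP3). SLC40A1 and STEAP3, not called at IM 18h against CTRL, were called here, where the JTE 18h libraries lay below CTRL for both. FTL did not differ detectably between the treatments at 18 h (-0.09, SE 0.07). At 6 h the difference was called for SLC25A37 (1.66) and TFR2 (0.69), both higher with imatinib, against 23.8% of all genes called and 13.6% called higher, and without IM 6h replicate 3 for SLC25A37 alone.

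Nuclear RNA, which holds more unfinished transcripts, was used to ask whether the changes were also seen in the nucleus. Both fractions were counted over exons and taken at the same times, so the order of a change and export was not tested. At IM 18h, 4 iron genes were called in nuclear RNA, all higher (TFR2, SLC11A2, SLC25A37 and NCOA4), against 32.6% of 21929 genes called and 17.2% called higher. On the adjusted p alone 8 passed, against 45.6% of all genes. SLC25A37 held 244, 262 and 363 CPM in CTRL and 3438, 2085 and 2700.5 CPM in IM 18h, and rose 9.06-fold (log2 change 3.18 with SE 0.25, adjusted p 4.74e-07 by edgeR). NCOA4 held 313, 292 and 318 CPM in CTRL and 980.2, 688 and 683 CPM in IM 18h (log2 change 1.28 with SE 0.12, adjusted p 8.67e-08 by edgeR). For both genes every treated library lay far above every CTRL library.

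TFR2 held 134, 165 and 169 CPM in nuclear CTRL and 370.1, 363 and 422 CPM at IM 18h, and rose 2.36-fold (log2 change 1.24 with SE 0.11, adjusted p 3.35e-08 by edgeR). SLC11A2 held 54.5, 62.9 and 74.7 CPM in CTRL and 144, 117 and 137 CPM at IM 18h, and rose 1.99-fold (log2 change 0.99 with SE 0.12, adjusted p 2.24e-06 by edgeR). TFRC held 1305, 1162 and 1245 CPM in CTRL and 2224, 1519 and 1608 CPM in IM 18h. The TFRC groups did not overlap, but its change of 0.46 (edgeR adjusted p 0.00455) stayed under the fold threshold and was 0.27, adjusted p 0.048, without IM 18h replicate 1.

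In both fractions SLC25A37 had the highest log2 fold change of the 10 at IM 18h and FTL the lowest. The difference between the nuclear and mRNA responses, tested as an interaction over 12 libraries, ran from -0.19 (TFRC, nuclear smaller, SE 0.21) to 0.34 (NCOA4, nuclear larger, SE 0.20). EdgeR and DESeq2 each called 0 of the 10, and 0.0851% of 19967 genes were called by edgeR. None of the 10 had an unadjusted p under 0.05, beside 960 of all genes. Standard errors of the difference were 0.15 to 0.28; differences of that size were not detectable here.

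**Figure D4:**
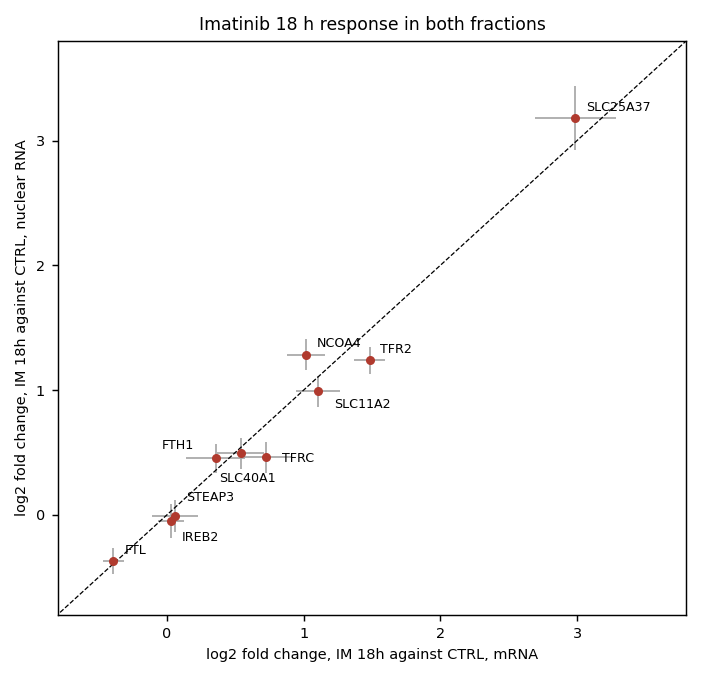
Log2 fold change of each iron gene at IM 18h against CTRL in mRNA (horizontal) and in nuclear RNA (vertical), with standard errors as bars and the line of equal change dashed. All 10 genes lie near the line, from FTL at -0.39 and -0.37 to SLC25A37 at 2.99 and 3.18.

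After short treatments none of the 10 was called in nuclear RNA, by edgeR or DESeq2, at IM 1h, JTE 1h or KCl 1h, where edgeR called 0.0456%, 8.52% and 23.8% of all genes. The count at an unadjusted p under 0.05 was 1 in each (SLC40A1 at IM 1h, TFR2 at JTE 1h and at KCl 1h). Of all 21929 genes, 844, 4775 and 7629 reached it at IM 1h, JTE 1h and KCl 1h. SLC40A1 held 70.3, 65.2 and 64.6 CPM in CTRL and 88.8, 75.3 and 82.2 CPM in IM 1h, without overlap (log2 fold change 0.36, SE 0.13, edgeR adjusted p 0.879). A block on the replicate number, which pairs the nuclear libraries, raised the genes that edgeR called at IM 1h from 10 to 69, with none of the iron genes among them. The log2 fold change of TFR2 was -0.26 at JTE 1h and -0.24 at KCl 1h, with edgeR adjusted p of 0.167 and 0.13. The nuclear minus mRNA difference of the 1 h responses was called by edgeR and by DESeq2 for none of the 10 with IM, JTE or KCl, against 0%, 0.0605% and 0.668% of all genes by edgeR. Its unadjusted p was under 0.05 for TFR2 alone, with JTE and with KCl. Over all genes that held for 395 of 19420 with IM, 1175 of 19831 with JTE and 2035 of 21095 with KCl.

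Beyond the 10 genes, 73 further genes of iron handling were listed by role, of which 62 were tested in mRNA. At IM 18h 9 of them were called higher and 10 lower, together 19 of 62 beside the 30.5% of all genes given above, and their median log2 fold change was -0.01. Among uptake partners (11 tested, 3 higher, 2 lower), SLC39A14, a transporter of zinc and non-transferrin iron, fell from 103 ± 15.2 CPM (SD, n = 3) to 19.5 ± 4.23 CPM (log2 change -2.43 with SE 0.18, adjusted p 1.77e-09 by edgeR). LTF, which encodes the iron-binding lactoferrin, had 2, 2 and 1 counts in the CTRL libraries and 69, 144 and 108 counts in IM 18h (edgeR adjusted p 1.02e-06). Of the group for export and systemic control (5 tested), HJV, the co-receptor in hepcidin signalling, fell from 2.61 ± 1.10 to 0.386 ± 0.105 CPM (log2 change -2.77 with SE 0.43, adjusted p 1.95e-05 by edgeR) and no gene was called higher.

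Of the mitochondrial genes for iron and iron-sulphur clusters (19 tested, 2 higher, 3 lower), ABCB10, an inner membrane transporter that stabilises mitoferrin 1, rose from 116 ± 19.0 to 403 ± 92.6 CPM (log2 change 1.77 with SE 0.24, adjusted p 4.61e-06 by edgeR). HSPA9, the chaperone of cluster assembly, fell from 1061 ± 58.4 to 475 ± 48.5 CPM (log2 change -1.20 with SE 0.10, adjusted p 5.65e-09 by edgeR). Of the genes for haem transport and breakdown (8 tested, 3 higher, 1 lower), HMOX2, the constitutive haem oxygenase, fell from 43.6 ± 6.88 to 23.5 ± 3.64 CPM (log2 change -0.93 with SE 0.15, adjusted p 2.67e-05 by edgeR). LRP1, a receptor for haem bound to hemopexin, rose from 0.327, 0.683 and 1.29 CPM to 13.3, 3.47 and 4.47 CPM, widely spread among replicates (log2 change 3.18 with SE 0.83, adjusted p 0.00387 by edgeR). CTRL and IM 18h did not overlap for any of these genes, which were named for the size of their called changes. Of all 62 further genes tested, 40 did not overlap. The share over all genes was not computed, so this count shows nothing particular to iron genes.

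Of the cytosolic chaperones and iron sensors (19 tested, 1 higher, 3 lower), BACH1, a repressor that haem inactivates, rose from 94.4 ± 10.1 to 152 ± 12.5 CPM (log2 change 0.65 with SE 0.16, adjusted p 0.0018 by edgeR). EPAS1, the hypoxia-inducible factor whose mRNA carries an iron-responsive element, fell from 11.9 ± 4.33 to 5.10 ± 0.908 CPM in mRNA (log2 change -1.25 with SE 0.46, adjusted p 0.0307 by edgeR). In nuclear RNA EPAS1 measured 16.7 ± 1.29 CPM in CTRL and 22.9 ± 1.07 CPM in IM 18h (log2 fold change 0.39). It was the sole gene of the 62 in both fractions whose nuclear and mRNA responses were called different at IM 18h (nuclear minus mRNA 1.71, SE 0.28, edgeR adjusted p 0.0146). In nuclear RNA 27 of 65 tested genes of these lists were called at IM 18h, beside 32.6% of all genes, 13 higher and 14 lower, among them HSPA9 (-1.18), ABCB10 (1.77), SLC39A14 (-2.55) and HJV (-2.48). Among the nuclear calls of chaperones and sensors GLRX3, a cytosolic glutaredoxin that binds iron-sulphur clusters, had the largest fall (-1.04).

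**Figure D5:**
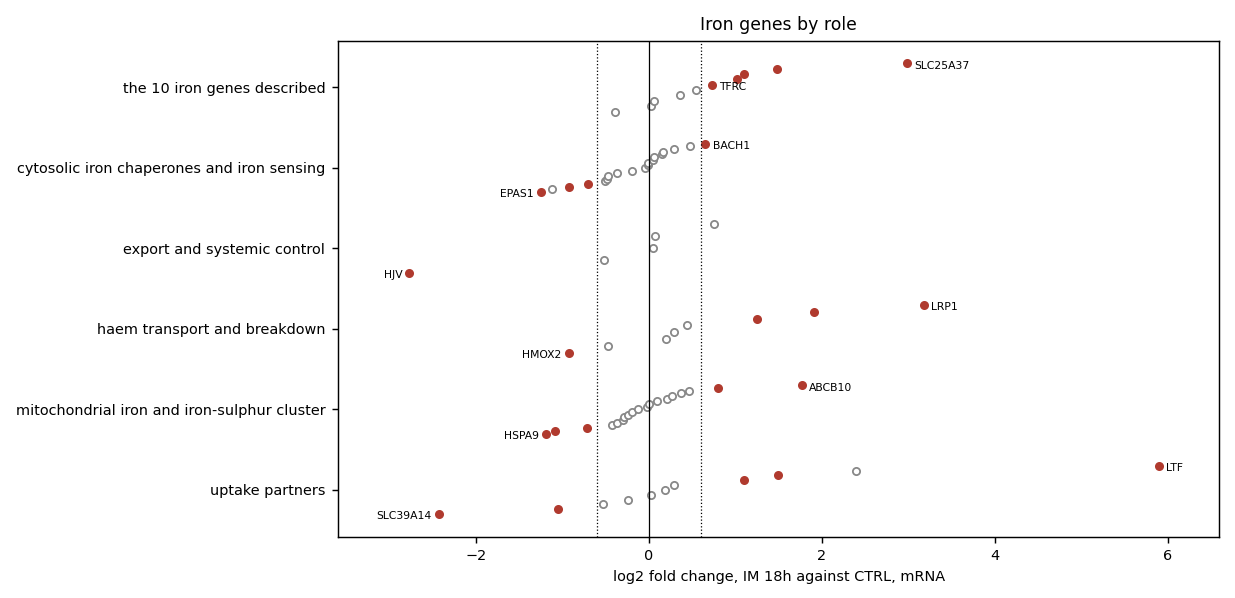
Log2 fold change at IM 18h against CTRL in mRNA (horizontal axis) for the 10 iron genes and for 62 further genes of iron handling, in rows by role. Red points were called, open points were not, dotted lines mark 0.6 in either direction, and the called genes with the highest and the lowest change of each row are named, from HJV at -2.77 to LTF at the right.

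At JTE 6h 2 of 62 genes of these lists were called, beside 13.2% of all genes, HAMP higher and CIAO3, of cytosolic cluster assembly, lower (log2 change -0.63 with SE 0.17, adjusted p 0.0108 by edgeR). At KCl 3h 5 of 62 were called, 3 higher and 2 lower, beside 11.9% of all genes: ZC3H12A, an endoribonuclease, rose from 7.79 ± 1.13 to 33.2 ± 7.54 CPM (log2 change 2.12 with SE 0.19, adjusted p 2.54e-08 by edgeR), HFE, a partner of the transferrin receptors, from 2.90 ± 1.25 to 7.32 ± 0.812 CPM (log2 change 1.37 with SE 0.31, adjusted p 0.00259 by edgeR), and SLC48A1, a haem transporter, fell from 28.5 ± 2.16 to 15.9 ± 0.728 CPM (log2 change -0.80 with SE 0.11, adjusted p 1.47e-05 by edgeR). BACH1 fell here, with a log2 fold change of -0.70 (edgeR adjusted p 0.0028), and the remaining gene called higher was BMP6, a ligand of hepcidin signalling, with under 1 CPM in both groups.

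HAMP, which encodes the hormone hepcidin that removes ferroportin from the membrane, was called higher in some of the JTE and KCl groups. Nuclear libraries held 0.133, 0.314 and 0.606 CPM in CTRL, 2.28, 2.59 and 2.55 CPM in JTE 1h and 2.08, 3.77 and 3.85 CPM in KCl 1h. Neither treated group overlapped CTRL (log2 change 2.83 with SE 0.38, adjusted p 4.42e-05 by edgeR for JTE 1h; log2 change 3.24 with SE 0.37, adjusted p 9.91e-07 by edgeR for KCl 1h). In JTE 6h mRNA it held 1.59, 1.07 and 3.71 CPM against 0.327, 0.158 and 0.280 CPM in CTRL, where it rested on 6, 3 and 5 counts (log2 change 3.12 with SE 0.59, adjusted p 0.000453 by edgeR). It was also called in mRNA at JTE 18h (2.56) and KCl 1h (2.30), but not at JTE 1h (edgeR adjusted p 0.44) or KCl 3h (edgeR adjusted p 0.0897). The counts do not show where a transcript over HAMP began. Transcription running on from an upstream gene, which the study links to JTE and osmotic stress, was not separated out. HFE was also called higher in nuclear RNA, by 0.70 at JTE 1h and 0.64 at KCl 1h, and LRP1 at KCl 1h by 0.86. Of 65 tested genes of the lists, 5 were called in nuclear RNA at JTE 1h, beside 8.52% of all genes, and 6 at KCl 1h, beside 23.8%. All of these calls were higher, while of all genes called 1536 of 1868 were higher at JTE 1h and 3362 of 5227 at KCl 1h.

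Genes with the course most like that of each iron gene were sought over the 9 mRNA group means of log2(CPM + 0.5), among 8725 genes with a symbol and a mean of at least 10 CPM. The measure was Pearson's r, given as a description of 9 points that share libraries. SLC25A37 came closest to EEIG2 (r = 0.992), FN3K (0.990) and SLC22A4 (0.990), and SLC22A4 was also among the 3 for SLC11A2, after UGCG (0.997). TFR2 came closest to OBSL1 (0.999), OPTN (0.997) and SORD (0.997). NCOA4 was closest to DNAJC4 (0.998) and then to XK (0.994) and HBM (0.994), a blood group protein and a globin. TFRC was closest to ACSM3 (0.956), SLC25A39 (0.941) and STAT5B (0.934). FTL was closest to its own pseudogene FTLP3 (0.975), then SCD (0.973) and CKS2 (0.967), and the 3 genes closest to FTH1 were ribosomal protein pseudogenes (r from 0.921 to 0.938). The first for SLC40A1 was RAB40C (0.968), for STEAP3 CSGALNACT2 (0.959) and for IREB2 ZNF212 (0.963).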

How the data were processed

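RNA of K562 cells was sequenced in paired ends as poly(A) mRNA and as nuclear RNA from which ribosomal RNA was removed. The authors trimmed and deduplicated the reads, aligned them with STAR to GRCh38.p14 (per the labels), kept unique alignments without long introns, and deposited raw counts of read pairs per gene from featureCounts, with no strand option and with pairs over more than 1 gene left out; the annotation release is not given in the sources used here. Deduplication without molecular identifiers can lower counts of abundant transcripts. No count column was without a sample. Of the 58243 gene IDs, 57532 are in GENCODE 44, which supplied symbols, and 99.90% of these overlap their position there.

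Libraries were grouped by their titles. EdgeR 4.0.16 (R 4.3.3) tested each gene (robust quasi-likelihood test, TMM normalization, filterByExpr), in 1 fit per fraction with a term per group (18095 mRNA and 21929 nuclear genes, common dispersion 0.0284 and 0.0176), and adjusted by Benjamini-Hochberg over all genes tested. Nuclear and mRNA responses were compared as an interaction in 12 libraries. P-values measure the spread between replicates, which differed by more than sampling noise (chi-square per gene 2.37 to 62.5). The fits were tested on simulated data. Some marker genes are not reported here and are in no marker sum. The 10 genes and the other lists were chosen with earlier results of these data known. Genes named were the 10; of each further list the called gene with the largest rise and the largest fall in IM 18h, JTE 6h and KCl 3h mRNA and in each nuclear comparison, with a mean of at least 1 CPM in the higher group; and, of the 3 genes most like each of the 10, at least the first where it is no pseudogene. BMP6 and GATA1 were named after their values were seen.

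Alternatives were DESeq2 1.42.0, other scalings, no filter on low counts, no fold threshold, fits of only the 2 groups, a replicate block, counts thinned to equal depth, pseudogene counts added to FTH1 and FTL, and leaving out each library. Deviations from group means correlated between libraries of the same number from 0.234 to 0.891 in every nuclear comparison with CTRL, so the titled numbers pair those libraries.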

Additional observations from a re-analysis of the deposited data

Results flagged for a closer look

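The change after imatinib differed between time points for 4 iron genes, by a direct test of IM 18h against IM 6h in mRNA: SLC25A37 by 1.45, TFRC by 0.80, TFR2 by 0.78 and SLC11A2 by 0.62 on the log2 scale, each higher at 18 h (edgeR's quasi-likelihood test, adjusted p from 0.000282 to 0.0185). Of all genes, 4.41% were called in this comparison. All 3 IM 18h libraries lay above all 3 IM 6h libraries for each of these genes. The 2 groups did not overlap for 8 of the 10 iron genes, uncalled ones among them. The share over all genes was not computed. Against CTRL, TFRC had a log2 fold change of -0.07, adjusted p 0.842 at 6 h and 0.72, adjusted p 0.00325 at 18 h. IM 6h replicate 3 lay nearest to the IM 18h libraries, and without it the differences were 2.22 (SLC25A37), 1.15 (TFRC), 0.87 (TFR2) and 0.83 (SLC11A2). Without IM 18h replicate 1 they were 1.22, 0.65, 0.81 and 0.55, in the same order. TFRC and SLC11A2 were then not called (edgeR adjusted p 0.0966 and 0.11).

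SLC40A1 differed between KCl 3h and KCl 1h by -0.74 on the log2 scale (edgeR adjusted p 0.00974), with all 3 later libraries below all 3 earlier ones. KCl 1h replicates 2 and 3 were the deepest mRNA libraries, and the call held with counts thinned to equal depth (-0.72) and with the block on the replicate number (-0.73). Groups of 3 are too small for the test of single outlying libraries.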

How the results depend on the processing

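No call of an iron gene changed direction under the alternatives run. Of the 27 calls of an iron gene, leaving out 1 library kept 148 of 162 and the other alternatives kept 237 of 243. The 20 losses were of TFR2 (IM 6h against CTRL and against JTE 6h), TFRC (IM 18h against CTRL and against IM 6h), SLC25A37 (IM 6h against CTRL, IM 18h against IM 6h), STEAP3 (JTE 18h), SLC40A1 (KCl 3h) and SLC11A2 (IM 18h against IM 6h), and their causes were not tested. With only the libraries of the groups compared, where fewer samples estimate the spread, 1 gene was called at IM 6h and 2 in IM 18h against IM 6h. Without scaling beyond library totals 0 were called at JTE 18h (STEAP3 at -0.58). Upper-quartile scaling, under which the median log2 fold change of all genes at IM 18h was 0.11 in mRNA and 0.12 in nuclear RNA, called 1 gene in JTE 18h against JTE 6h (TFRC at -0.62), and SLC40A1 at IM 18h (0.61 in mRNA, 0.62 in nuclear RNA). With no fold threshold the counts were 4 at IM 6h, 3 at JTE 18h, 2 at KCl 3h, 4 in JTE 18h against JTE 6h, 2 in KCl 3h against KCl 1h and 8 at IM 18h in nuclear RNA.

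Leaving out 1 library at a time gave 4 to 6 calls at IM 18h, 2 to 3 at IM 6h, 0 to 1 at JTE 18h, 0 to 1 at KCl 3h, 2 to 6 in IM 18h against IM 6h, 0 to 2 in JTE 18h against JTE 6h, 1 to 2 in KCl 3h against KCl 1h and 1 to 3 in IM 6h against JTE 6h. The replicate block changed no call of an iron gene, with 5 called at IM 18h in mRNA, although it raised the calls over all genes there from 5513 to 5948. The largest move of that count among the mRNA comparisons was in IM 18h against IM 6h, from 798 to 1368. In mRNA, libraries of the same number deviated together in KCl 3h and KCl 1h (correlations 0.583 to 0.671), IM 6h and JTE 6h (0.407 to 0.578) and JTE 18h and JTE 6h (0.112 to 0.324), which pairs them there, but not throughout in the comparisons with CTRL (-0.367 to 0.877). The first and the second CTRL mRNA library have their totals in the opposite order in the deposited counts and in the read table of the study. Their numbers, and the block against CTRL, are therefore uncertain, while their group is not; libraries are named here as the deposited counts number them. Whole-gene counts could not separate transcripts of a gene, ferritin reads shared with pseudogenes were not counted, and with 3 libraries a group the standard errors of the 10 genes at IM 18h in mRNA were 0.07 to 0.30.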

Other observations

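The order of the replicate numbers differed between the fractions. In nuclear RNA, replicate 3 had the highest SLC25A37 level and the highest summed erythroid marker level in CTRL, IM 1h, JTE 1h and KCl 1h, for example 244, 262 and 363 CPM of SLC25A37 and 3677, 4861 and 5731 CPM of markers in CTRL replicates 1 to 3. In mRNA, replicate 3 had the lowest marker level in CTRL, IM 1h, IM 18h, JTE 1h, JTE 6h, KCl 1h and KCl 3h, with 3378, 4391 and 2553 CPM in CTRL, and the highest in IM 6h. SLC11A2 was highest in replicate 3 of 8 of the 9 mRNA groups and 4 of the 5 nuclear groups, all but IM 18h.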
